A study of Mus musculus with 8 samples.

Results

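The cytosolic ribosomal protein genes of mouse bone marrow-derived macrophages (BMDMs) were followed after knockdown of the lncRNA MAARS. Members were taken by symbol: protein-coding genes named Rps or Rpl with a digit, together with Rpsa, Rplp0, Rplp1 and Rplp2, and without the S6 kinase genes, whose symbols also begin with Rps. The rule found 92 genes among the 49315 rows of the count table, of which 21811 were protein-coding. By class, 31 encode proteins of the small subunit, 44 proteins of the large subunit and 3 proteins of the stalk, and these 78 genes are called the ribosomal protein genes below. The other members were 7 genes for variant copies (paralogs), 6 genes with pseudogene symbols and Rps19bp1. The last was caught by its symbol only, since it encodes a protein that binds Rps19 and is no part of the mature ribosome.

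BMDMs were grown from C57BL/6 marrow in medium with 10 ng/ml M-CSF and transfected by Lipofectamine with 25 nM gapmeR, an antisense DNA oligonucleotide with modified ends whose pairing with a transcript leads RNase H to cut it. The 4 libraries of control gapmeR (replicates 2, 5, 6 and 7) received a negative control sequence, and the 4 of MAARS gapmeR (replicates 9, 11, 13 and 15) received one against MAARS. Loss of MAARS and other effects of the oligonucleotide cannot be told apart in this design. Total RNA was depleted of ribosomal RNA and sequenced. The labels give neither the age of the mice nor whether libraries came from separate animals or cultures, so p-values measure the spread between these libraries, which may be technical.

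Every cytosolic ribosome joins ribosomal RNA with a copy of nearly every ribosomal protein, and the genes for these proteins are expressed at high and roughly balanced levels. Their mRNAs typically begin with a C followed by a run of pyrimidines, the 5′ terminal oligopyrimidine (TOP) motif, through which mTOR and LARP1 control their translation and stability. In macrophages, which secrete and renew much protein, these mRNAs are among the most abundant. Assembly takes place in the nucleolus, where RNA polymerase I makes the ribosomal RNA precursor and a large set of biogenesis factors folds, cuts and modifies it.

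Start-site sequences are shown for members on which the results turn or which show the motif, from 60 bases before to 30 bases after the RefSeq start on GRCm38, with the pyrimidine run at or near the start in capitals where it held at least 5 bases. Rps21 (chr2:180257319-180257408, plus strand), Rps6 (chr4:86857338-86857427, minus strand) and Rps15a (chr7:118116118-118116207, minus strand) have the motif at the start itself. Rps24 (chr14:24490618-24490707, plus strand) has a run across the start, which is there a T, and Rpl22l1 (chr3:28805448-28805537, plus strand) has one shortly after it, while Rpl10a (chr17:28328411-28328500, plus strand) and Rpl7l1 (chr17:46782627-46782716, minus strand) have no run of that length within 5 bases of it, although in Rpl10a a run of C ends just before the start. Rps27 (chr3:90213619-90213708, minus strand) and its retrogene Rps27rt (chr9:114982710-114982799, minus strand) are shown because they share 29 letters without a break. The match goes from the retrogene's first transcribed base to the end of the Rps27 stretch shown, where the comparison stopped. The sequences before the starts differ.
Rps21: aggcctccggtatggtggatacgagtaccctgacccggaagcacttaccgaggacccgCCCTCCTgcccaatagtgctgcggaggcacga
Rps6: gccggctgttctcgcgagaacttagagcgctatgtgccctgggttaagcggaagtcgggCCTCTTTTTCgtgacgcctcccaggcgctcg
Rps15a: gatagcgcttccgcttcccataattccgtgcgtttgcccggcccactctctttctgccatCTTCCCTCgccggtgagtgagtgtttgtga
Rps24: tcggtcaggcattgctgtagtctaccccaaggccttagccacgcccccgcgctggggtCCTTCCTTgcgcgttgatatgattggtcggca
Rpl22l1: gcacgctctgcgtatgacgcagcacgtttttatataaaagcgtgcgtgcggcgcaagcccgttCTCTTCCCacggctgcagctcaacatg
Rpl10a: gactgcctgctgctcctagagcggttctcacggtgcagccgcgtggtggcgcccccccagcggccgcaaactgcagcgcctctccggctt
Rpl7l1: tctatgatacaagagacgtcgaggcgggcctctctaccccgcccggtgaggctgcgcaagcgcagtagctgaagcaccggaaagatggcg
Rps27: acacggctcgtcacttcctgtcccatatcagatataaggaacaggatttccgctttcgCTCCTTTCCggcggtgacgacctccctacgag
Rps27rt: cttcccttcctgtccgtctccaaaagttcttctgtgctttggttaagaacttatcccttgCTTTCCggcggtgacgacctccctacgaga

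Of the 92 members, 66 had a promoter in the RefSeq table, and 13 of them (19.7%) began with C and at least 4 further pyrimidines, against 2.49% of all 27025 promoters. Among other genes of the translation machinery the start was found in 3 of 33 translation factors, in 1 of 70 biogenesis factors and in 0 of 69 mitochondrial ribosomal proteins. When a run within 5 bases of the start was accepted, 43.9% of the members and 18.5% of all promoters had it. The annotated starts limit this description, since 32 of the 66 lay within 5 bases of a start in GENCODE M21. Short motifs, 5 in all, were also counted on both strands over the 300 bases from 250 before to 50 after the start. CCGGAAG, the letters of ETS factors, was in 37.9% of the members and 9.12% of all promoters, and it was as frequent among biogenesis factors (40.0%) and mitochondrial ribosomal proteins (36.2%). AAGATGGC, the letters of YY1, which can overlap CCGGAAG by 3 bases, was in 7.58% against 2.88%, and GGGCGG, the GC box, was in 60.6% against 35.9%. TATAAA (9.09% against 14.2%) was not more frequent among the members, and CACGTG, the E box, was about as frequent among them (7.58%) as among all promoters (7.24%).

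The libraries held 19287279 to 24541205 gene counts, and every MAARS gapmeR library was deeper than every control library. Counts were scaled to TMM-normalized counts per 1000000 (CPM) for all values given below, and a gene was called changed at an adjusted p under 0.05 in edgeR's quasi-likelihood test, adjusted over the 13051 genes tested. MAARS itself, listed as Gm14461 on chromosome 2, had 13.1 ± 1.36 CPM (SD, n = 4) in control gapmeR and 6.82 ± 0.844 CPM in MAARS gapmeR, with no overlap (log2 fold change -0.95 ± 0.11 SE, edgeR adjusted p = 5.8e-05). Of 10 macrophage markers, all were tested, 5 rose and 4 fell, with log2 fold changes from -2.09 to 0.74. Of all genes tested, 21.3% were called higher and 24% lower. The summed level of the macrophage markers, which follows the most abundant of them, was 14649 to 17887 CPM in control gapmeR and 17564 to 20794 CPM in MAARS gapmeR. Erythroid markers summed to at most 0.39 CPM in any library, and of 8 T and NK cell markers 7 had group means of at most 0.0741 CPM. The other, Cd4, was called lower (74.0 ± 8.59 CPM in control, 46.2 ± 4.72 CPM in MAARS gapmeR, log2 fold change -0.68). Summed neutrophil markers were 102 to 301 CPM in control and 106 to 169 CPM in MAARS gapmeR libraries, stromal markers 465 to 1062 and 730 to 1251 CPM, and B cell markers 1.89 to 3.98 and 6.25 to 22.8 CPM, of which Ighm was called higher. Of 13 proliferation markers 10 rose and the other 3 were not called, with sums of 636 to 1024 CPM in control and 937 to 1226 CPM in MAARS gapmeR libraries, and the part of proliferation in the values below was not tested. In bulk RNA, fewer cells of a type and less RNA per cell cannot be told apart.

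Member genes took a larger share of the counts in MAARS gapmeR than in control gapmeR libraries. Their share was 2.42%, 2.42%, 2.21% and 2.24% in control gapmeR replicates 2, 5, 6 and 7. It was 2.66%, 2.63%, 2.70% and 2.69% in MAARS gapmeR replicates 9, 11, 13 and 15. The groups did not overlap, and the 4 control libraries spread more (SD 0.112 percentage points) than the 4 MAARS gapmeR libraries (SD 0.0284). The ratio of the group means was 1.15 for all members, 1.16 for the small subunit, 1.15 for the large subunit and 1.10 for the stalk. Pseudogenes can take reads of the genes they were copied from. The 278 pseudogene rows named after a ribosomal protein gene rose in share as well, from 0.0225% to 0.0296%. Pseudogenes with other symbols were not counted. Mitochondrially encoded genes went from 0.469% to 0.769% of the counts and the ribosomal RNA rows left after depletion from 0.0482% to 0.0386%, both without overlap, and whether RNA quality or depletion took part in the difference was not tested.

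**Figure D1:**
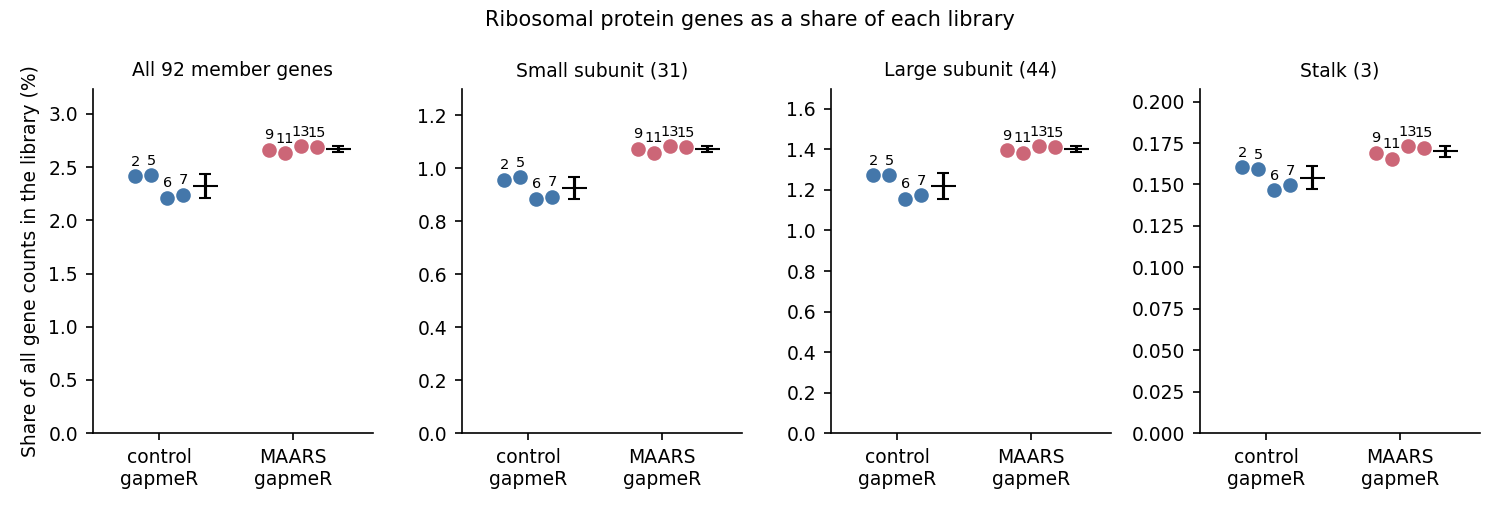
Share of all gene counts (percent, y axis) on the member genes and on the small subunit, large subunit and stalk genes, for each of the 4 control gapmeR and 4 MAARS gapmeR libraries (points, numbered by replicate), with the mean and SD beside them. In each panel every MAARS gapmeR library lies above every control library, and control replicates 6 and 7 are the lowest of all.

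Gene by gene, 87 of the 92 members passed the filter on low counts and were tested. The 5 that did not were Rpl10l, Rpl36-ps4, Rpl36a-ps1, Rpl9-ps1 and Rps12-ps3, so all 78 ribosomal protein genes were tested. In all, 45 of the 87 (51.7%) were called, against 45.4% of all genes tested, a share near the background. By direction, 40 members (46.0%) were called higher in MAARS gapmeR, where the background was 21.3%, and 5 (5.75%) were called lower, where it was 24%. Groups of 4 libraries did not overlap for 41 members that were higher, 47.1% against 19.3% of all genes tested, and for 4 members that were lower, 4.60% against 22.8%. With upper-quartile factors, under which 60.4% rather than 47.0% of all calls were in the higher direction, 67 members were called higher and 3 lower.

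The changes were small. Among the 78 ribosomal protein genes 37 were called higher, 2 lower and 39 neither way, and the median log2 fold change was 0.13, a rise of 9.23% in level, beside 0.01 over all genes tested and -0.04 over the 3303 genes at least as abundant as the lowest of them. They ran from -0.26 to 0.58, and 72 of the 78 estimates were above 0. These estimates share the same libraries and do not count as separate results. In 62 of the 78 genes control replicates 6 and 7 both lay below replicates 2 and 5. The median log2 deviation of the tested members from the control mean was 0.10 in control replicate 5 and -0.08 in replicate 7. It was 0.11 to 0.15 in the MAARS gapmeR libraries. In the small subunit 18 of 31 genes were called higher and 1 lower (median 0.14), in the large subunit 18 of 44 higher and 1 lower (median 0.11), and in the stalk 1 of 3 higher (median 0.08). Across the 78 genes the correlation of the estimates with exonic length was -0.16, with GC content 0.19 and with control CPM -0.03 (Pearson's r, given as a description, since all genes come from the same libraries). With offsets for length and GC content, fitted over all genes, the median of the members was 0.19 in place of 0.13, and 56 in place of 37 of the 78 genes were called higher. Of the 40 members called higher, 30 were also called in each of the 8 fits that left out 1 library and under each of the 8 other settings, and the same held for 3 of the 5 called lower.

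**Figure D2:**
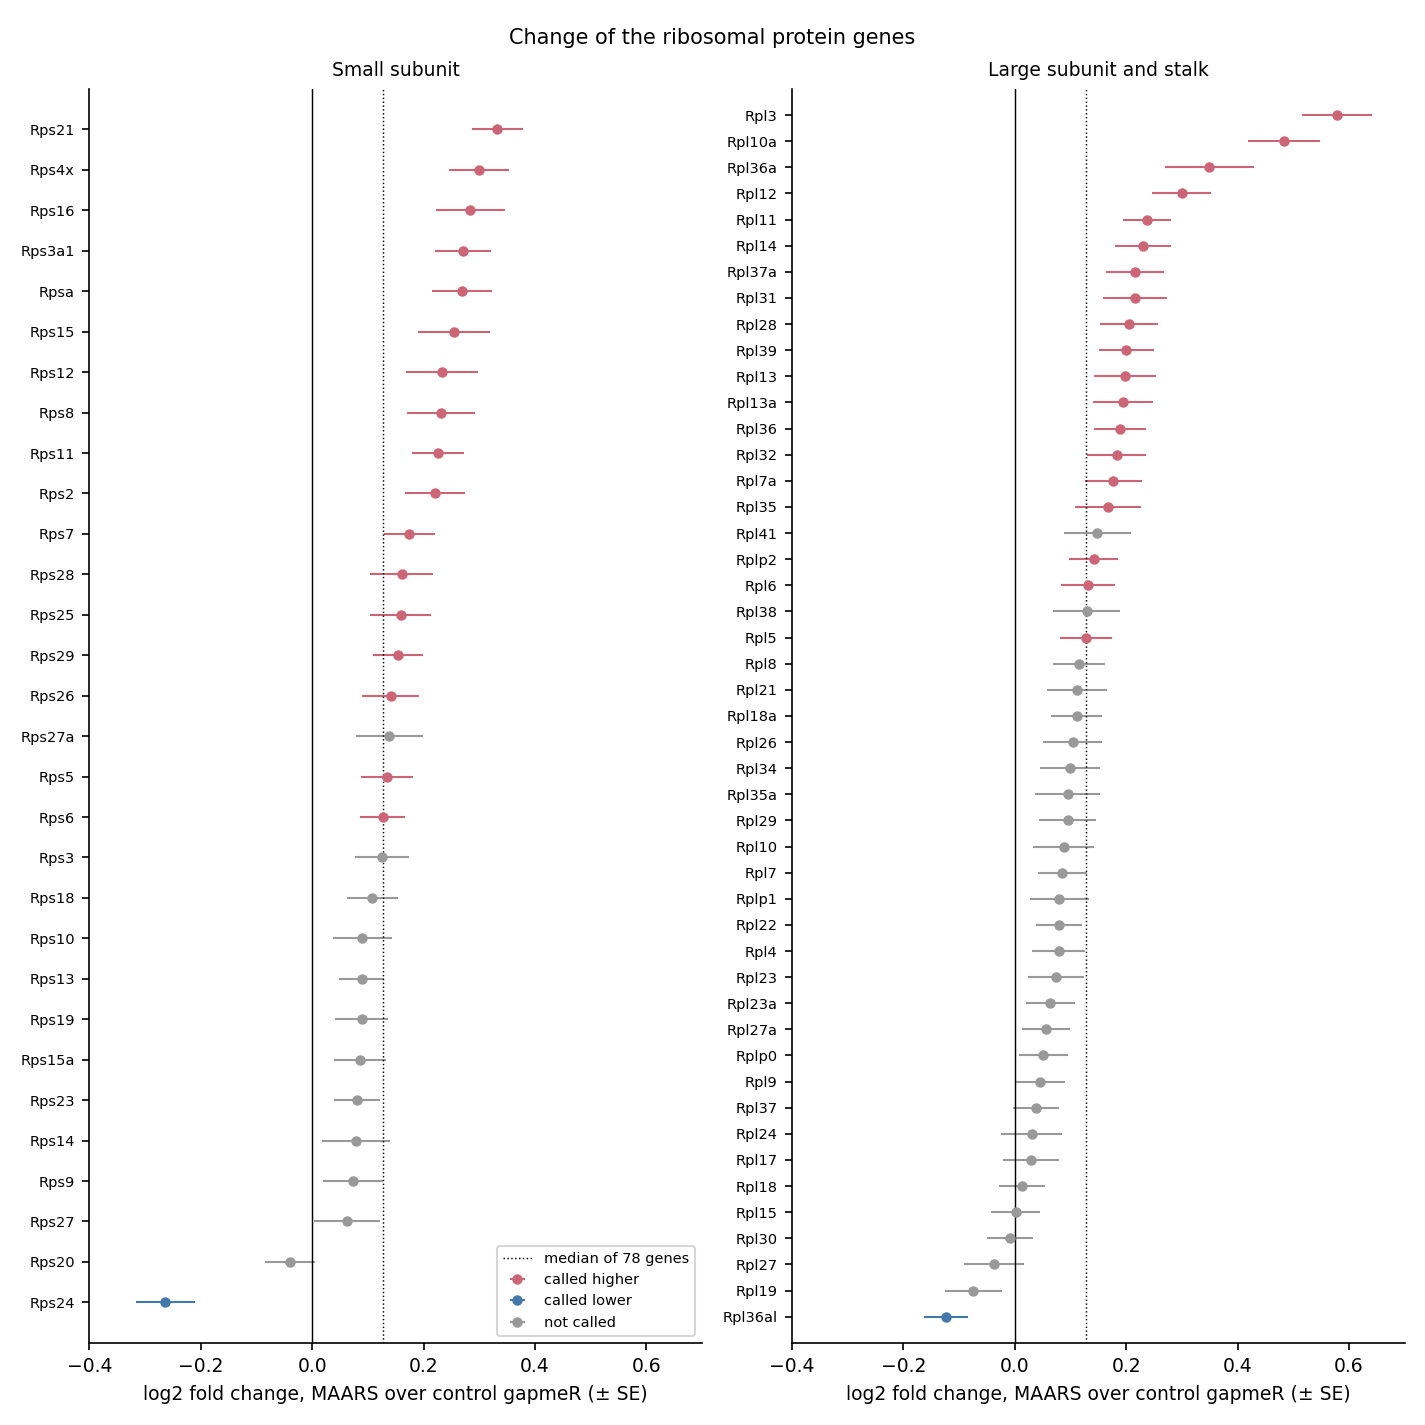
Log2 fold change of the ribosomal protein genes, 1 of the small subunit not shown (x axis, MAARS over control gapmeR, points with SE from edgeR, 4 libraries per group), ordered by size for the small subunit (left) and the large subunit with the stalk (right), coloured by call, with the median of the 78 as a dotted line. Rpl3 (0.58) and Rpl10a (0.48) lie apart at the upper end and Rps24 (-0.26) and Rpl36al (-0.12) at the lower end, while most genes lie between 0 and 0.3.

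The largest rises among the ribosomal protein genes were in the large subunit. Rpl3 (chr15:80077791-80091868, minus strand) encodes the protein that reaches the peptidyl transferase centre. Rpl3 had 373, 378, 318 and 320 CPM in control replicates 2, 5, 6 and 7 and 520, 506, 515 and 531 CPM in MAARS gapmeR replicates 9, 11, 13 and 15. All MAARS gapmeR libraries were higher than all control libraries, and the change was 0.58 ± 0.06 (log2 fold change ± SE, edgeR adjusted p = 3.3e-05). Rpl3-ps1, a pseudogene on chromosome X that together with another Rpl3 pseudogene held counts equal to 13.6% of those of Rpl3, moved by the same amount (0.58 ± 0.08). Rpl10a (chr17:28328471-28331033, plus strand) is the protein of the L1 stalk, the arm beside the site from which empty tRNA leaves. Rpl10a had 220, 224, 191 and 185 CPM in control and 294, 280, 278 and 296 CPM in MAARS gapmeR libraries, again without overlap (0.48 ± 0.06, edgeR adjusted p = 0.00014). Rpl12, at the base of the stalk that recruits elongation factors, rose from 327 ± 23.1 to 402 ± 4.76 CPM (0.30 ± 0.05, edgeR adjusted p = 0.00086).

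In the small subunit the leading genes changed by less. Rps21 had 113, 123, 119 and 112 CPM in control and 143, 144, 151 and 151 CPM in MAARS gapmeR libraries (0.33 ± 0.05, edgeR adjusted p = 0.00017). Rps4x, the X-linked copy of Rps4, rose from 476 ± 35.1 to 586 ± 5.13 CPM (0.30 ± 0.05, edgeR adjusted p = 0.001). Neither gene had overlapping groups. Rpsa, the partner of Rps21 on the back of the subunit that is also known as the laminin receptor, rose from 372 ± 26.2 to 448 ± 7.19 CPM (0.27 ± 0.05, edgeR adjusted p = 0.0018). Pseudogenes named after Rpsa held counts equal to 28.6% of those of Rpsa. The most abundant of them, Rpsa-ps10, was 0.36 ± 0.05 higher, so how reads were divided between them and Rpsa can move the value for Rpsa. Rps3a1, Rps16 and Rps15 rose by 0.25 to 0.28, without overlap between groups.

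Several genes have known roles outside the core of translation. Those in this paragraph all had estimates above 0, from 0.07 to 0.24, and not all were called. Rpl5 and Rpl11 form a particle with 5S RNA that binds MDM2 when assembly is disturbed. Rpl11 rose from 318 ± 13.3 to 375 ± 4.35 CPM (0.24 ± 0.04, edgeR adjusted p = 0.0011) and Rpl5 by 0.13 ± 0.05 (edgeR adjusted p = 0.043). Rpl23, another MDM2 partner, was 0.07 ± 0.05 higher (edgeR adjusted p = 0.25). Rps6, whose phosphorylation by S6 kinases is the usual readout of mTOR activity, rose from 267 ± 7.15 to 292 ± 6.60 CPM (0.13 ± 0.04, edgeR adjusted p = 0.026). Rpl13a, which leaves the ribosome of interferon-gamma treated macrophages to silence inflammatory mRNAs, rose from 124 ± 8.55 to 141 ± 4.58 CPM (0.19 ± 0.05, edgeR adjusted p = 0.012), although 35.4% of its exonic length overlaps another gene on the same strand. Rps3, a partner of NF-kappaB, had 397 to 446 CPM in control and 449 to 478 CPM in MAARS gapmeR libraries. Its groups did not overlap, but its estimate of 0.13 ± 0.05 missed the threshold (edgeR adjusted p = 0.057), which it passed with RLE factors, DESeq2 and limma-voom (adjusted p = 0.043, 0.025 and 0.047). Rps25, needed for some internal ribosome entry sites, rose by 0.16 ± 0.05 (edgeR adjusted p = 0.034), with overlapping groups. Genes on the opposite strand overlap 24.8% of the exonic length of Rps25 and 24.3% of that of Rpl5. The strand setting of the counts is not known.

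Several of these calls lay near the threshold. Rpl5 lost its call without control replicate 6 or 7 or MAARS gapmeR replicate 9, 11, 13 or 15 (edgeR adjusted p = 0.06 to 0.12). Rps6 lost it without control replicate 6 or 7 or MAARS gapmeR replicate 11 or 13 (adjusted p = 0.052 to 0.078), and Rps25 without control replicate 6 or 7 or MAARS gapmeR replicate 9, 13 or 15 (adjusted p = 0.065 to 0.094). All 3 also lost it when low counts were not filtered (adjusted p = 0.119, 0.115 and 0.054). The estimates stayed above 0 in every one of these fits, so the calls near the threshold changed and not the direction. Rpl11, Rpl13a, Rpsa, Rps21, Rps4x, Rpl12, Rpl10a and Rpl3 were called in all 8.

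Other genes of this kind did not pass the test. Rps19, the gene most often mutated in Diamond-Blackfan anemia, had 290 ± 17.4 CPM in control and 308 ± 2.00 CPM in MAARS gapmeR (0.09 ± 0.05, edgeR adjusted p = 0.16). Rpl38, known for its part in translating Hox mRNAs, was 0.13 ± 0.06 higher (edgeR adjusted p = 0.10), and Rps27a, which is made as a fusion with ubiquitin, 0.14 ± 0.06 higher (edgeR adjusted p = 0.081). Without control replicate 5 the adjusted p fell to 0.014 for Rpl38, 0.019 for Rps27a and 0.043 for Rps19. For each of the 3 the lowest control libraries were replicates 6 and 7, while replicate 5 lay within the range of the MAARS gapmeR libraries or above it.

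The genes of the stalk proteins, which recruit the GTPases of translation, had a lower median than those of either subunit. They are only 3 genes, and a difference from the subunits was not tested. Rplp2 rose from 253 ± 11.7 to 279 ± 5.14 CPM (0.14 ± 0.04, edgeR adjusted p = 0.023), but not when control replicate 6 or 7 or MAARS gapmeR replicate 13 or 15 was left out (adjusted p = 0.051 to 0.074) or low counts were not filtered (adjusted p = 0.077). Rplp1 had 653 ± 38.5 CPM in control and 690 ± 25.0 CPM in MAARS gapmeR (0.08 ± 0.05, edgeR adjusted p = 0.24). Rplp0, often used as a reference gene, had 686, 700, 651 and 643 CPM in control and 696, 686, 694 and 701 CPM in MAARS gapmeR libraries. Its groups overlapped and its estimate was 0.05 ± 0.04 (edgeR adjusted p = 0.37), although upper-quartile factors raised it to 0.11 (adjusted p = 0.049).

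Only Rps24 and Rpl36al were called lower among the 78. Rps24 (chr14:24487125-24496959, plus strand), a small subunit protein needed to mature the end of its ribosomal RNA and another Diamond-Blackfan gene, had 486, 513, 556 and 526 CPM in control and 445, 412, 453 and 425 CPM in MAARS gapmeR libraries. The groups did not overlap (-0.26 ± 0.05, edgeR adjusted p = 0.002) and the call held in all 8 fits that left out a library, where the estimate was -0.29 to -0.24. Rpl36al (chr12:69182731-69184083, minus strand) is a copy of Rpl36a. It had 104 ± 2.22 CPM in control and 95.1 ± 1.86 CPM in MAARS gapmeR (-0.12 ± 0.04, edgeR adjusted p = 0.024), and 24.5% of its exonic length overlaps another gene on the same strand. This call was lost without control replicate 2 or 7 or MAARS gapmeR replicate 11 or 15 (adjusted p = 0.055 to 0.058), without a filter on low counts (adjusted p = 0.10), with upper-quartile factors (-0.06, adjusted p = 0.23), and with offsets for length and GC content (-0.02, adjusted p = 0.66).

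The genes for variant copies of ribosomal proteins had estimates from -0.37 to 1.37, a wider range than that of the ribosomal protein genes. Of the 7, 6 were tested, 3 were called higher and 2 lower, where the background of all genes tested was 21.3% higher and 24% lower. Rpl22l1 (chr3:28805436-28807424, plus strand) encodes a paralog of Rpl22, a protein known to repress Rpl22l1 expression through its mRNA. Rpl22l1 had 20.5, 22.4, 15.8 and 18.1 CPM in control and 42.4, 36.6, 36.3 and 36.9 CPM in MAARS gapmeR libraries. Every MAARS gapmeR library was above every control library, with replicate 9 the highest (0.98 ± 0.10, edgeR adjusted p = 1.8e-05). Rpl22 itself had 154 to 162 CPM in control and 162 to 174 CPM in MAARS gapmeR, 0.08 ± 0.04 higher (edgeR adjusted p = 0.14). Rpl22l1 therefore stood at 12.2 ± 1.52% of the CPM of Rpl22 in control and at 22.9 ± 1.97% in MAARS gapmeR.

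Rpl3l, the paralog of Rpl3 of heart and skeletal muscle, was near the floor at 0.433 to 0.713 CPM in control and 1.19 to 1.91 CPM in MAARS gapmeR libraries. Its groups did not overlap (1.37 ± 0.27, edgeR adjusted p = 0.0017), yet it made up 0.165% of the CPM of Rpl3 in control and 0.288% in MAARS gapmeR. Rpl39l, the testis-enriched paralog of Rpl39, had 0.922 to 1.57 CPM in control and 1.47 to 2.21 CPM in MAARS gapmeR (0.66 ± 0.22, edgeR adjusted p = 0.03). These groups overlapped, and Rpl39l lost its call without control replicate 2, 5 or 6 or MAARS gapmeR replicate 11, 13 or 15 (adjusted p = 0.058 to 0.080). Its partner Rpl39 rose from 165 ± 8.54 to 189 ± 7.73 CPM (0.20 ± 0.05, edgeR adjusted p = 0.0069). Rpl10l, a testis gene that stands in for X-linked Rpl10 in germ cells, had no counts in any library, which allows at most 0.162 CPM (3 counts in the library where they weigh most).

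Rpl7l1 (chr17:46773907-46782672, minus strand), a nucleolar relative of Rpl7, fell. Rpl7l1 had 114, 118, 115 and 112 CPM in control and 86.5, 94.8, 92.5 and 83.0 CPM in MAARS gapmeR libraries, without overlap (-0.37 ± 0.05, edgeR adjusted p = 0.00015). Rpl7 had 432 ± 15 CPM in control and 459 ± 12.3 CPM in MAARS gapmeR (0.09 ± 0.04, edgeR adjusted p = 0.14), and Rpl7l1 went from 26.6 ± 0.504% to 19.5 ± 1.54% of its CPM. Rps27l, a p53 target, had 85.3 ± 7.12 CPM in control and 74.6 ± 5.43 CPM in MAARS gapmeR (-0.19 ± 0.07, edgeR adjusted p = 0.038). Its groups overlapped, and the call was lost without control replicate 2 or 6 or MAARS gapmeR replicate 9, 11 or 15 (adjusted p = 0.072 to 0.10), with upper-quartile factors (-0.13, adjusted p = 0.13) and with length and GC offsets (-0.05, adjusted p = 0.62). Rps27 was 0.06 ± 0.06 higher (edgeR adjusted p = 0.41). The retrogene Rps27rt, whose first letters match those of Rps27, had 0.461 to 0.764 CPM in control and 0.460 to 0.597 CPM in MAARS gapmeR libraries. Rpl36a rose from 111 ± 14.4 to 141 ± 4.88 CPM (0.35 ± 0.08, edgeR adjusted p = 0.0042) while Rpl36al fell, so that Rpl36al went from 94.6 ± 12.8% to 67.3 ± 1.48% of the CPM of Rpl36a. How reads that match both genes of a pair were divided is not known.

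**Figure D3:**
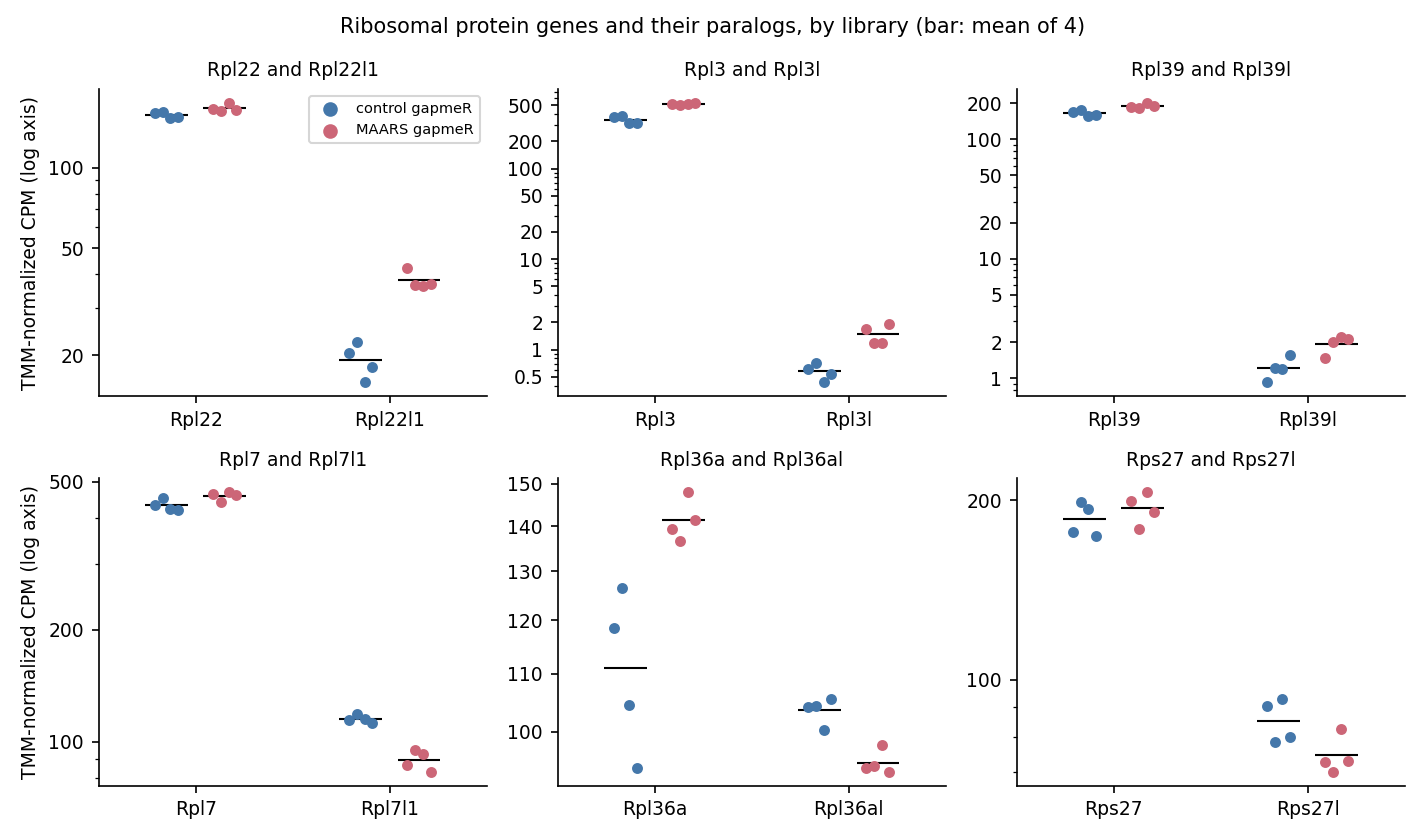
TMM-normalized CPM (log axis) of 6 ribosomal protein genes and their paralogs in each control gapmeR and MAARS gapmeR library (points, 4 per group) with the mean of each group (bar). Rpl22l1, Rpl3l and Rpl39l are higher in MAARS gapmeR, with overlap between groups for Rpl39l only among these 3, and Rpl7l1 and Rpl36al are lower without overlap.

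Rps19bp1, the member that is no ribosomal protein, fell from 21.6 ± 0.752 to 17.7 ± 1.23 CPM without overlap (-0.28 ± 0.07, edgeR adjusted p = 0.0058), and the call held in all 8 fits that left out a library. The 2 genes with pseudogene symbols that were tested, Rpl10-ps3 and Rpl9-ps6, had at most 1.99 CPM in any library and were not called (edgeR adjusted p = 0.63 and 0.93).

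Levels were compared between genes per kilobase of exon, using the union of all annotated exons of a gene, which makes genes with long annotated isoforms look low. The median of the 78 genes was 151 CPM per kilobase in control and 168 in MAARS gapmeR. In control the range was 36.6 for Rps15a to 1309 for Rplp1, a 35.8-fold span. Rps15a, Rpl35a (50.1) and Rpl22 (54.1) were the lowest. Rps15a has 6270 exonic bases against 499 for Rplp1, so part of the span is length of annotation. Below Rplp1 came Rps3a1 (465), Rpl19 (465) and Rps15 (461), which did not differ beyond their spread in control. The order was nearly the same in both groups, with Spearman's rho of 0.99 over the 78 genes, and the change between groups was much smaller than the differences between genes.

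**Figure D4:**
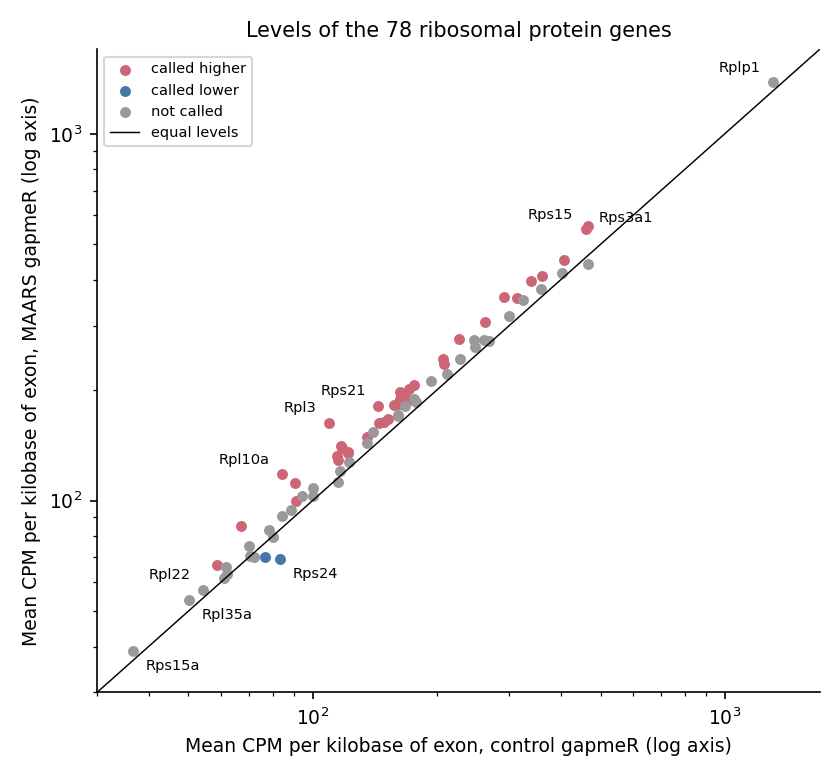
Mean CPM per kilobase of exon of the 78 ribosomal protein genes in control gapmeR (x axis) and MAARS gapmeR (y axis), both on log axes, coloured by call, with the line of equal levels. Most points lie just above the line over the whole range from Rps15a (36.6 in control) to Rplp1 (1309), Rpl3 and Rpl10a lie farther above it, and Rps24 lies below it.

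The changes were also described by features of the genes that the symbol rule did not use, and differences between these subsets were not tested. The 12 ribosomal protein genes with the pyrimidine start had a median log2 fold change of 0.13, as had the 46 with another start. Rps21 was the highest of the 12 (0.33) and Rpl15 the lowest at 0.00. This split depends on annotated starts, of which 32 of 66 over the members lay within 5 bases of a start in GENCODE M21. It cannot show whether the motif itself goes with the change. For the 23 with CCGGAAG the median was 0.14, and 14 of the 23 were called higher. For the 35 without it the median was 0.09, and 15 of the 35 were called higher. Between the ends of 30 of the 78 genes lie 58 snoRNA genes on the same strand, the guides that modify ribosomal RNA. Those 30 host genes had a median of 0.14 with 17 called higher, and the other 48 had a median of 0.11 with 20 called higher. Of all genes tested 21.3% were called higher. The 78 genes are spread over 19 chromosomes.

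Genes that assemble the ribosome mostly had lower estimates in MAARS gapmeR. Of the proteins of the ribosome whose symbols the rule leaves out, Rack1 rose by 0.15 ± 0.05 (edgeR adjusted p = 0.026), and Fau was 0.09 ± 0.05 higher (edgeR adjusted p = 0.14). Of 82 biogenesis factors 56 were called lower and 1 higher (median -0.29). Tcof1, which couples ribosomal RNA transcription to processing, fell from 89.6 ± 3.61 to 52.0 ± 4.16 CPM (-0.79 ± 0.06, edgeR adjusted p = 5.5e-06), and Utp18, of the small subunit processome, by -0.68 ± 0.07 (edgeR adjusted p = 1.5e-05). Of 15 genes of RNA polymerase I transcription 6 were lower and 1 higher (median -0.20), led by Polr1a, its largest subunit (-0.74 ± 0.08, edgeR adjusted p = 4.3e-05). Dedicated chaperones of ribosomal proteins fell in 4 of 6 genes (median -0.29). Among them, Tsr2, the carrier of Rps26, went from 23.5 ± 2.22 to 14.2 ± 1.96 CPM (-0.73 ± 0.11, edgeR adjusted p = 0.00024). Of 78 genes for mitochondrial ribosomal proteins 45 were lower and 2 higher (median -0.19). The mRNAs for proteins of the cytosolic and of the mitochondrial ribosome thus lay on opposite sides of the background of all genes tested (24% called lower, 21.3% called higher). Ribosomes themselves were not measured. Over the 16 other settings and left-out libraries the median was -0.32 to -0.22 for biogenesis factors, -0.22 to -0.13 for RNA polymerase I genes and -0.21 to -0.13 for mitochondrial ribosomal proteins.

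Translation factors, the proteins that load and move the ribosome, were called about as often as all genes tested. Of 43 genes 11 were lower and 8 higher, beside a background of 24% and 21.3%, and the sign of their median (-0.04) changed with the setting, between -0.05 and 0.02. Eif3h (0.36 ± 0.06) and Eif4b (0.27 ± 0.06) rose, and Eif3d (-0.38 ± 0.04) and Eif6 (-0.49 ± 0.05), which keeps the large subunit from joining the small, fell. Of 20 genes that act on TOP mRNAs or on transcription of the ribosomal protein genes 6 were higher and 4 lower (median 0.03), but 5 and 9 with length and GC offsets (median -0.02) and 9 and 4 with upper-quartile factors (median 0.10). Larp1, the TOP-binding protein, fell from 216 ± 8.12 to 157 ± 8.28 CPM (-0.46 ± 0.05, edgeR adjusted p = 3.2e-05), without overlap. Eif4ebp2, a translation repressor inhibited by mTOR, rose (0.51 ± 0.08, edgeR adjusted p = 0.00049), as did Deptor, an mTOR inhibitor (0.71, edgeR adjusted p = 0.0023). Mtor was 0.12 lower (edgeR adjusted p = 0.096) and Rps6kb1 0.02 higher (edgeR adjusted p = 0.77). Myc, a driver of ribosome synthesis, had 8.18 CPM in control and 11.2 CPM in MAARS gapmeR (0.45, edgeR adjusted p = 0.11). Among 16 ribosome quality control genes 5 were lower and 2 higher (4 and 5 with upper-quartile factors), and among 12 noncoding snoRNA hosts 3 were lower and 2 higher (1 and 2 with length and GC offsets), with Zfas1 down from 30.6 ± 4.43 to 12 ± 2.31 CPM (-1.35 ± 0.14, edgeR adjusted p = 2.0e-05).

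**Figure D5:**
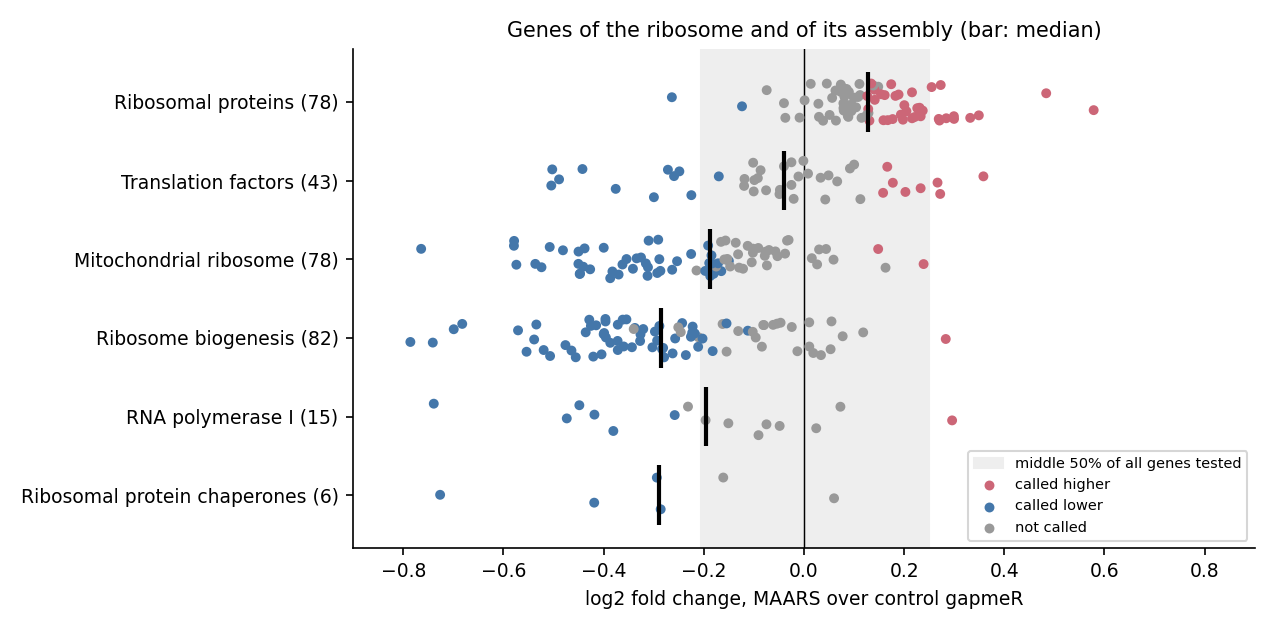
Log2 fold change (x axis, MAARS over control gapmeR) of each gene of the ribosome, of translation and of ribosome assembly (points, coloured by call; vertical offsets carry no meaning), with the median of each list as a bar and the middle 50% of all genes tested shaded. The median lies at 0.13 for the 78 ribosomal protein genes and at -0.29 for the 82 biogenesis factors.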

How the data were processed

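RNA-Seq libraries of 8 BMDM samples were compared, 4 per group, as grouped by their labels. According to the submitters' processing notes and the study's methods, the authors trimmed reads with Trimmomatic 0.36, aligned them with STAR 2.5.2b to GRCm38 with Ensembl transcripts and obtained gene counts by featureCounts (Subread 1.5.2). The strand setting and the treatment of reads that match several genes are not given in the sources used here, which bears on ribosomal protein genes, since these have many near-identical pseudogenes. The deposited values are raw counts per gene.

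Counts were analysed in R 4.3.3 with edgeR 4.0.16: filterByExpr (minimum count 10, minimum total 15), TMM factors, glmQLFit and glmQLFTest over all genes, Benjamini-Hochberg adjustment and a threshold of 0.05. Symbols, positions and exonic lengths came from GENCODE M21, which held 99.5% of the gene IDs, and start-site sequences from RefSeq (GRCm38.p6). The fit was also run on simulated counts in which few genes changed, in equal numbers up and down. That run cannot show how the scaling holds when many genes change, as here. Alternatives were RLE and upper-quartile factors, TMM factors without the members, DESeq2 1.42.0, limma-voom (limma 3.58.1), all genes with any count, genes averaging at least 10 counts, loess offsets for length and GC content (span 0.3) and each library left out in turn. Shares of counts and paralog ratios are descriptions without a test. Ribosomal protein genes had 1164 to 18941 counts per library.

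The members and the gene lists were chosen with earlier results of these data known. Genes were named by rule: up to 6 called members of lowest p among those that rose and among those that fell, both genes of each paralog pair, genes with listed roles and the 3 highest and 3 lowest per exonic length over both groups. Every other list gave up to 2 called genes per direction, those of lowest p. The other genes, and the sequences shown for Rps6, Rps15a, Rps21, Rps27 and Rps27rt, were chosen after their values were seen. Results for some genes are not reported here.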

Additional observations from a re-analysis of the deposited data

Results flagged for a closer look

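In 1 of the 78 groups of 4 libraries examined, the CPM of the named members within a group, 1 library stood apart from the other 3. Rpl22l1 had 42.4 CPM in MAARS gapmeR replicate 9 against 36.3 to 36.9 CPM in replicates 11, 13 and 15, a gap of 0.891 of the range of the group, above Dixon's 95% critical value for 4 samples. Chance gives such a gap in about 1 of 20 groups. Without replicate 9 the rise of Rpl22l1 was 0.92 on the log2 scale (edgeR adjusted p = 7.2e-05).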

How the results depend on the processing

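No named member and no count or median of the members reversed its direction. Medians of the lists of translation factors (-0.04), TOP and transcription regulators (0.03) and ribosome quality control genes (-0.02) lay near 0 and changed sign, to 0.02 with upper-quartile factors, to -0.02 with the offsets and to 0.04 with upper-quartile factors. The median of the members, 0.13, was 0.19 both with upper-quartile factors and with offsets for length and GC content, and 0.12 to 0.13 under the other settings. The median over all genes tested was 0.071 with upper-quartile factors and 0.004 with the offsets, beside 0.008 in the main fit. Members therefore lay 0.119, 0.190 and 0.118 above all genes tested. Members called higher (40) were 67 with upper-quartile factors and 32 to 59 under the others, and members called lower (5) were 3 with upper-quartile factors, 3 with the offsets and 4 or 5 otherwise. With 1 library left out, the members called higher were 30 to 49, those called lower 3 to 5, the median 0.09 to 0.15 and the rise in the share of counts 0.309 to 0.379 percentage points. The count of members called lower fell to 3 without control replicate 2, MAARS gapmeR replicate 11 or MAARS gapmeR replicate 15. The share of counts was 0.346 percentage points higher in MAARS gapmeR, and 0.348, 0.355 and 0.353 with the denominator of coding genes, without mitochondrial and ribosomal RNA genes, and with the pseudogenes named after ribosomal protein genes. Over the 38 named members and 16 alternatives, 538 of 608 values stayed as in the main fit, either called or not called. A call was lost in 43 and gained in 27. The cause of these differences was not tested. No paired analysis was possible because the groups share no replicate numbers. The separate depth of the groups, the unknown strand and multiple-match settings and the 4 libraries per group limit what small changes can show.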
